A study of Mus musculus with 24 samples.

Results

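Pancreatic islets taken 7 days after partial pancreatectomy (PPTx) from young mice were compared with islets of unoperated mice of the same age. The groups came from the sample titles, which gave 2 day 7 libraries and 4 control libraries, together 6 of the 24 libraries of the series. All mice were 8-week-old C57BL/6J males with no transgene or drug treatment. In the operated mice about 50% of the pancreas, the splenic side, had been cut away. The controls had no operation, so laparotomy, anaesthesia and resection cannot be told apart. Each library was made from whole islets of 1 or 2 mice by a low-input full-length cDNA method, and nothing in the labels says which libraries share mice or cultures, so the p-values measure the spread between these libraries. The titles place the operated libraries at postoperative day 7, and the study's methods list days 2, 7 and 14, whereas the treatment text attached to every sample speaks of 2 days. The titles were followed. The 4 young libraries of day 2 and the 2 of day 14 entered the fit to estimate the spread and were used as later or earlier reference points. Both day 7 libraries carried 1 code in their file names, controls 1 and 2 another and controls 3 and 4 yet another. What the code stands for is not given in the sources used here, and code and group cannot be told apart.

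Adult beta cells, the insulin-producing cells that make up most of a mouse islet, rarely divide. Loss of pancreas tissue raises the demand on those that remain and is a classical way to draw them into the cell cycle. A dividing cell first loads the MCM helicase on its origins and copies its DNA under E2F transcription factors. It then builds a spindle under the kinases CDK1, PLK1 and Aurora B. The genes of these kinases are switched on late in the cycle by the MuvB complex together with B-MYB and FOXM1. The secretory load of a beta cell is carried by chaperones of the endoplasmic reticulum (ER), such as BiP, the product of Hspa5.

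Total counts per library lay between 5874340 and 9385697 in the controls and were 5761164 and 6473147 at day 7. Reads counted in genes, as a percentage of all mapped reads, were 38.3% and 41.1% at day 7 against 39.2% to 55.3% in the controls. Levels are given below as CPM, counts per 1000000 counts of the library with library sizes scaled by TMM, in which 1 count was worth about 0.177 CPM in control 1. The libraries held the defining islet hormones at high level: Ins1 and Ins2 together took 11.3% and 11.2% of all counts, before TMM scaling, at day 7 and 8.44% to 9.46% in the controls. Because these are bulk samples, fewer cells of a type and less RNA per cell cannot be told apart in any value that follows.

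Of 14493 genes tested, 15 differed between day 7 and control at an adjusted p below 0.05 (edgeR's quasi-likelihood test with Benjamini-Hochberg adjustment), which is 0.103% of the genes. Cenpa, Fam111a, Ffar2 and Cgn rose (0.0276%), and Mdm1, Fkbp5, Usp51, Gad1, Hspa1b, Hspa1a, Rgcc, Ahcy, Nudt4, Rab31 and Tmtc3 fell (0.0759%). At an unadjusted p below 0.05 there were 706 genes higher (4.87%) and 700 lower (4.83%), and both day 7 libraries lay above all 4 controls for 1549 genes (10.7%) and below them for 1668 (11.5%). DESeq2 called 234 genes (1.61%) and held all 15 of these calls. Leaving out day 7 replicate 1 left 1 call and leaving out replicate 2 left 2, Mdm1 being the one gene that held in each of the 6 fits that left out a library, while leaving out a control gave 4 to 21 calls. Cgn, Cenpa, Fam111a, Tmtc3 and Nudt4 were lost in all 6 of them. With the RLE scaling of DESeq2 the split was 2 higher of 12 calls instead of 4 of 15, and limma on log2(RPKM + 1), under which the median of all genes moved to 0.21, gave 421 higher of 440.

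**Figure D1:**
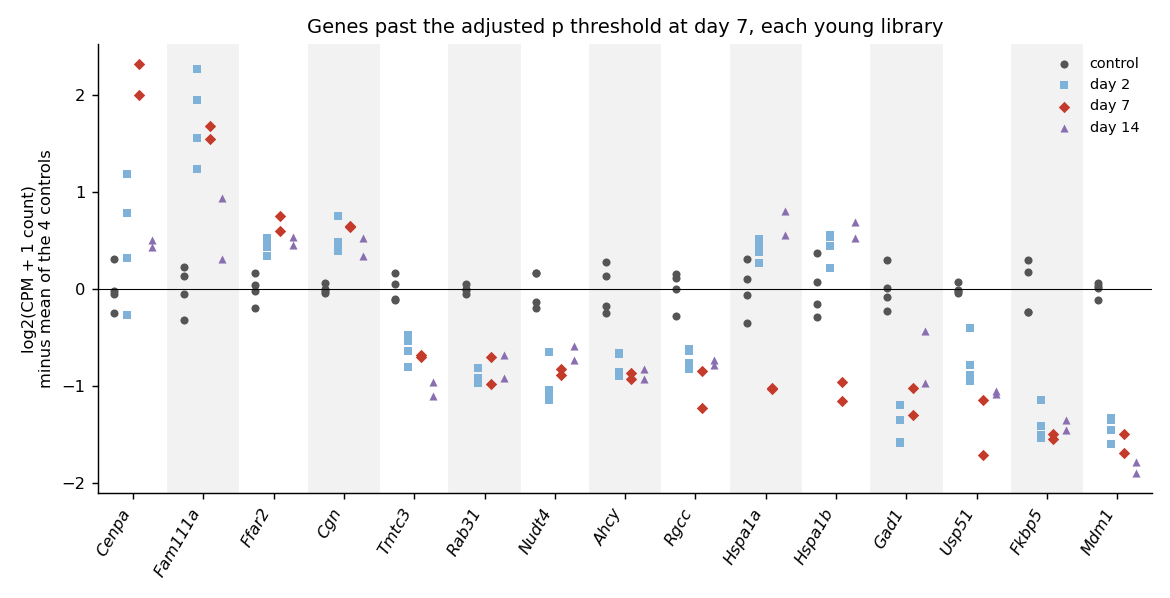
Each young library's log2(CPM + 1 count) minus the mean of the 4 controls (vertical axis) for the 15 genes past the adjusted p threshold (horizontal axis); circles are controls, squares day 2, diamonds day 7 and triangles day 14. Both day 7 libraries lie outside the range of the controls for all 15 genes, and Hspa1a and Hspa1b are low at day 7 but not at day 2 or day 14.

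Among the pathway lists whose members lay above control, the mitotic genes had the highest median. Cenpa, which encodes the histone H3 variant that marks centromeres, was at 1.41, 1.37, 1.18 and 1.81 CPM in the controls and at 7.75 and 6.21 CPM at day 7. Both day 7 libraries stood apart from all controls, and the rise of 2.26 on the log2 scale (SE 0.393) passed the test in edgeR with an adjusted p of 0.0498. It rested on few reads, 8 to 12 counts per control library and 47 and 43 at day 7. The call was lost in each of the 6 fits that left out 1 library, with the log2 fold change between 1.78 and 2.41 over 20 alternatives.

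Of the 89 listed genes of G2, spindle assembly and cytokinesis, 88 passed the filter on low counts. Cenpa alone passed the adjusted threshold, and 24 had an adjusted p below 0.1. At an unadjusted p below 0.05, 72 were higher (81.8%, all genes 4.87%) and 0 were lower (all genes 4.83%). With the file-name code as a random block in limma-voom, 0 of the 88 were called, and Cenpa had an adjusted p of 0.0568 with an estimated correlation. The count of calls in this list depended on the fit. It was 38 higher with DESeq2, 43 with the 6 control and day 7 libraries alone, 18 with the replicate number as a block and 0 with RLE scaling. Both day 7 libraries were above all 4 controls for 77 of the 88 (87.5%, all genes 10.7%) and below them for 0 (all genes 11.5%). The median log2 fold change was 1.62, against -0.01 over all genes tested. These genes were chosen with results of this series known, so the count describes them and is not independent evidence of their direction.

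Mki67, the proliferation antigen used to stain cycling cells, was at 9.36, 8.95, 23.5 and 16.5 CPM in the controls and at 64.0 and 51.0 CPM at day 7 (log2 fold change 1.97, SE 0.449, edgeR adjusted p = 0.089). Top2a, the topoisomerase that untangles sister chromatids, was at 7.95, 8.95, 23.1 and 12.7 CPM against 60.5 and 61.8 CPM (2.20, SE 0.452, adjusted p = 0.0717). In both genes control 3 was the highest control and still lay below either day 7 library. Ccnb1, the cyclin that activates CDK1 at mitotic entry, was at 3.88, 5.31, 7.84 and 6.04 CPM in the controls and at 31.8 and 19.8 CPM at day 7 (2.15, SE 0.421, adjusted p = 0.0661).

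The mitotic kinases were also above all controls in both day 7 libraries. Nek2, which splits the centrosomes, was at 1.41, 2.12, 4.73 and 4.99 CPM in the controls and at 23.2 and 19.4 CPM at day 7, with a log2 fold change of 2.66 (SE 0.515), the largest of the mitotic list. Plk1 was at 0.53, 1.37, 3.55 and 1.51 CPM against 11.4 and 8.81 CPM. Cdk1 itself was at 2.3, 2.28, 6.65 and 6.19 CPM in the controls and at 15 and 15.7 CPM at day 7. Aurkb, the chromosomal passenger kinase, had a log2 fold change of 1.73 (SE 0.685), and its partner Birc5 one of 0.56 (SE 0.548), with day 7 libraries at 10.1 and 6.93 CPM and controls at 5.14 to 6.36 CPM.

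The microtubule genes Stmn1 and Tacc3 had a smaller SE than Mki67 and Top2a. Stmn1, a tubulin-sequestering protein, was at 9.89, 9.11, 19.5 and 11.8 CPM in the controls and at 38.8 and 37.0 CPM at day 7 (log2 fold change 1.58, SE 0.309). Tacc3, a spindle scaffold, was at 9.71, 6.98, 11.7 and 8.76 CPM against 21.9 and 29.8 CPM (1.48, SE 0.271). Kif2c, Kif18b, Ckap2, Ckap2l, Cks2 and Fam64a were among the 10 largest rises of all genes with a mean above 1 on the log2 CPM scale, an unadjusted p below 0.05 and no overlap of the groups, with log2 fold changes between 2.25 and 2.52. The other 4 of those 10 were Nek2, Plk1, Cenpa and Vmn2r77, a vomeronasal receptor gene at 0.739 to 1.41 CPM in the controls and at 2.8 and 9.1 CPM at day 7. Cyclin A2 and FOXM1 could not be read alone, since the files joined Ccna2 to Exosc9 and Foxm1 to 4933413G19Rik. Those joined rows had log2 fold changes of 0.64 (SE 0.172) and 1.46 (SE 0.543).

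**Figure D2:**
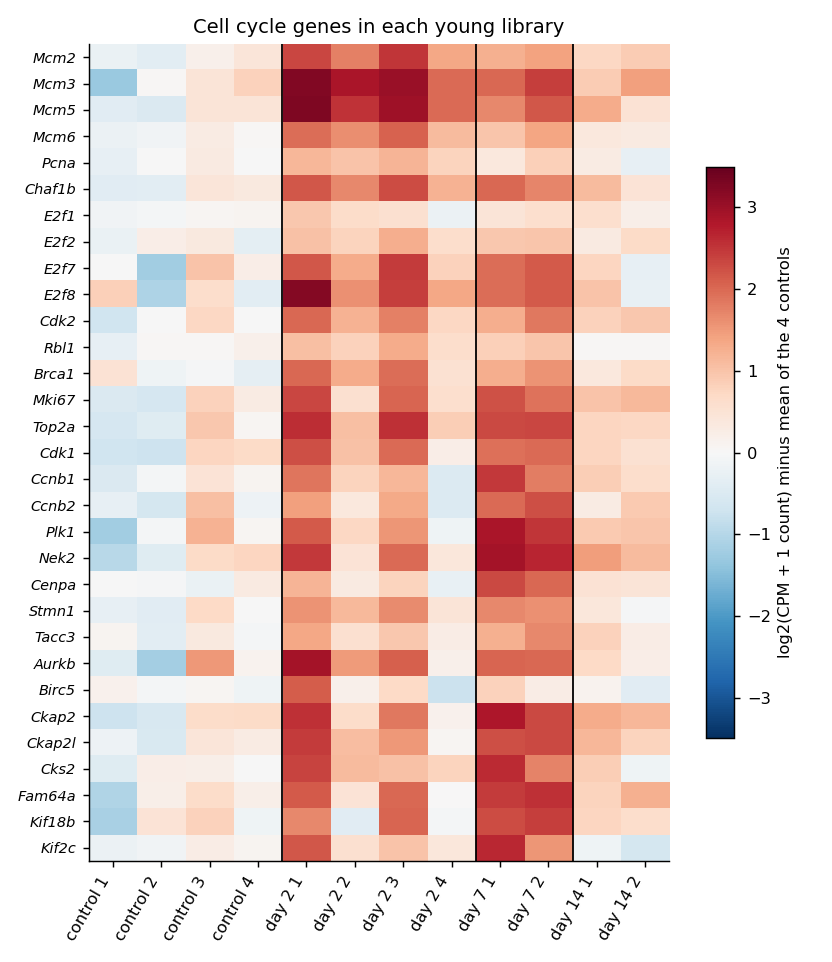
Colour gives log2(CPM + 1 count) minus the mean of the 4 controls for 31 cell cycle genes (rows) in the 12 young libraries (columns, separated by group). The replication genes at the top are darkest in day 2 libraries 1 to 3, the mitotic genes at the bottom are dark in both day 7 libraries, and control 3 is the control with most red.

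The DNA replication genes were also above control, by less. All 47 listed genes of origin licensing and S phase passed the filter and 0 were called. DESeq2 called 18 of them higher, the replicate number as a block 7, and the file-name code as a random block in limma-voom 0. At an unadjusted p below 0.05 there were 31 higher (66%, all genes 4.87%) and 0 lower (all genes 4.83%). Both day 7 libraries lay above all controls for 39 of 47 (83%, all genes 10.7%), and the median log2 fold change was 0.88. Mcm5, a subunit of the replicative helicase, was at 4.42, 4.1, 7.98 and 8.01 CPM in the controls and at 19 and 26.9 CPM at day 7 (1.89, SE 0.353, edgeR adjusted p = 0.063). Mcm6, another subunit with more reads, was at 21.6, 22.8, 30.8 and 26.0 CPM against 49.5 and 66.0 CPM (1.19, SE 0.223, adjusted p = 0.063). Mcm3 had a log2 fold change of 2.05 (SE 0.389) and Mcm2 one of 1.30 (SE 0.279).

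Chaf1b, which places histones on new DNA, was at 1.94, 1.97, 3.55 and 3.32 CPM in the controls and at 10.9 and 8.81 CPM at day 7 (1.85, SE 0.345). Pcna, the sliding clamp of the polymerases, differed less, at 19.1, 23.5, 29.1 and 23.4 CPM against 30.2 and 41.7 CPM (0.60, SE 0.195, edgeR adjusted p = 0.265). The Pcna libraries did not overlap between the groups, but day 7 replicate 1 was close to control 3. In the list scores, which average log2 CPM over the members of a list, replication stood at 4 and 4.2 at day 7 and at 2.95, 3.01, 3.37 and 3.26 in the controls. The mitotic score was 3.79 and 3.66 at day 7 and 1.97, 2.04, 2.73 and 2.37 in the controls.

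Those scores split the controls by file-name code, with controls 3 and 4 above controls 1 and 2 in both lists. Against controls 1 and 2 alone the mitotic median was 2.06 and 105 genes of all tested were called, and against controls 3 and 4 alone it was 1.33 and 3 genes were called. With the code as a random block in limma-voom, at its estimated correlation of 0.0385, 6 genes were called.

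Genes that act before S phase were mostly near control. Of 29 tested genes of G1, 0 were called, and the median log2 fold change was 0.15. At an unadjusted p below 0.05, 7 were higher (24.1%, all genes 4.87%). Rbl1, a retinoblastoma-like pocket protein, was at 9.89, 12.6, 12.6 and 13.9 CPM in the controls and at 21.6 and 24.1 CPM at day 7 (0.90, SE 0.189, edgeR adjusted p = 0.0787). E2f1, an activator, was at 33.7 to 39.4 CPM in the controls and at 50.6 and 55.5 CPM at day 7 (0.53, SE 0.218). The repressors E2f7 and E2f8 had log2 fold changes of 1.93 (SE 0.552) and 2.03 (SE 0.623), both from controls under 3 CPM, and E2f2 and Cdk2 had 0.95 (SE 0.258) and 1.55 (SE 0.417).

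The D cyclins, which link growth signals to the cycle, overlapped with control. Ccnd2 was at 915 to 1112 CPM in the controls and at 1125 and 1085 CPM at day 7 (log2 fold change 0.17, SE 0.136). Ccnd1 was at 27.2 to 33.7 CPM against 32.8 and 36.0 CPM (0.24, SE 0.139), and Ccne1 differed by 0.41 (SE 0.399). Among 6 tested inhibitors of cyclin-dependent kinases 0 were called. Cdkn2c, an INK4 inhibitor, was at 5.12, 6.68, 7.98 and 10.4 CPM in the controls and at 16.2 and 11.1 CPM at day 7 (0.84, SE 0.297). Cdkn1a, the p53 target p21, overlapped between the groups at 10.5 to 20.9 CPM in the controls and 14.8 and 11.8 CPM at day 7.

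Repair genes had a lower median, 0.29, than the replication genes. Of 33 tested DNA damage and repair genes, 0 were called, and 6 were higher at an unadjusted p below 0.05 (18.2%, all genes 4.87%). Both day 7 libraries were above control for 11 (33.3%, all genes 10.7%). Brca1, of homologous recombination, was at 6.71, 4.25, 4.58 and 3.78 CPM in the controls and at 11.7 and 14.3 CPM at day 7 (1.44, SE 0.351). Xrcc3, of the same pathway, had a log2 fold change of 0.54 (SE 0.152). Of the chromatin regulators, Ezh2, the methyltransferase of polycomb complex PRC2, was at 2.65 to 4.88 CPM in the controls and at 8.9 and 8.52 CPM at day 7 (1.21, SE 0.299). Dnmt1, the maintenance DNA methyltransferase, had 0.53 (SE 0.159). The 17 tested members of that list had a median of -0.02.

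Fam111a, one of the 4 genes that rose, encodes a protease that works at replication forks. It was at 4.24, 3.04, 3.7 and 4.53 CPM in the controls and at 11.5 and 12.7 CPM at day 7 (log2 fold change 1.64, SE 0.287, edgeR adjusted p = 0.0498). Cgn, for the tight junction protein cingulin, was at 82.0, 77.2, 78.4 and 76.0 CPM against 122 and 123 CPM (0.64, SE 0.105, adjusted p = 0.0375). Ffar2, a receptor for short-chain fatty acids, was at 35.9, 40.7, 31.8 and 37.5 CPM against 55.2 and 61.4 CPM (0.68, SE 0.112, adjusted p = 0.0375). Neither Cgn nor Ffar2 is a cell cycle gene, and both had narrow ranges within each group. Cgn lies at chr3:94464507-94590414 and Ffar2 at chr7:31603376-31608794 (mm9), Fam111a at chr19:12620230-12664258 and Cenpa at chr5:30969150-30977200.

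The promoters of these gene groups carry different short elements, and 6 are shown because their genes were followed above or below. Each run is the 250 bases before the RefSeq transcript start (GRCm38.p6) in the direction of transcription, with the named element in capitals. In Cenpa the capitals are CCAAT boxes, read as ATTGG on this strand. In Cdk1 and Top2a they are the cell cycle genes homology region (CHR, TTTGAA or its complement TTCAAA), where the DREAM and MuvB complexes bind. In Mcm5 and Mcm6 they are E2F sites, 2 overlapping in Mcm5 and, in Mcm6, 2 overlapping with 1 more apart, and in Hspa5 the ER stress element that ATF6 recognizes.
Cenpa, chr5:30666636-30666885, plus strand: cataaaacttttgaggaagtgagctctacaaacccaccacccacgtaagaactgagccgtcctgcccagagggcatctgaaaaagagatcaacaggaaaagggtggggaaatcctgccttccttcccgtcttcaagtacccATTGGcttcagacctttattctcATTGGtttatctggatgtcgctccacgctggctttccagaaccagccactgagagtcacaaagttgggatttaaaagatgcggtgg
Cdk1, chr10:69352913-69353162, minus strand: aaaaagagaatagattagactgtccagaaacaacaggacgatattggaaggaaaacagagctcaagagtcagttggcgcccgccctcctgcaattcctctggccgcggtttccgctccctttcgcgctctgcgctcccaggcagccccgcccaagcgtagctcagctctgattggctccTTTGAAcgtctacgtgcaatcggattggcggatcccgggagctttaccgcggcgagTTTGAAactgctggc
Top2a, chr11:99024190-99024439, minus strand: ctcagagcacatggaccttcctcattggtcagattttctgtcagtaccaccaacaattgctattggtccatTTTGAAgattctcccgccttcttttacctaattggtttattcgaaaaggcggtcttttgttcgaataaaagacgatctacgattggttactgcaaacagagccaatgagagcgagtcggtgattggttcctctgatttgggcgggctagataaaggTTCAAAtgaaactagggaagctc
Mcm5, chr8:75109259-75109508, plus strand: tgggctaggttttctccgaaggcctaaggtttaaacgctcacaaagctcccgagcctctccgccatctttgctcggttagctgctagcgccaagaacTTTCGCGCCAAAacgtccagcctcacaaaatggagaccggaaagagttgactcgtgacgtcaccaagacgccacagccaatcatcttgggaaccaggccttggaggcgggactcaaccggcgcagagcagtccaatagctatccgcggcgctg
Mcm6, chr1:128359706-128359955, minus strand: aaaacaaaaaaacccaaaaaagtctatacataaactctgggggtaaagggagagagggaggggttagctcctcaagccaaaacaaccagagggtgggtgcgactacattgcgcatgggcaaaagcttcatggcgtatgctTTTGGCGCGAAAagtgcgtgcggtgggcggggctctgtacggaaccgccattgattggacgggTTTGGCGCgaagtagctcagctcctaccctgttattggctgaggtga
Hspa5, chr2:34771840-34772089, plus strand: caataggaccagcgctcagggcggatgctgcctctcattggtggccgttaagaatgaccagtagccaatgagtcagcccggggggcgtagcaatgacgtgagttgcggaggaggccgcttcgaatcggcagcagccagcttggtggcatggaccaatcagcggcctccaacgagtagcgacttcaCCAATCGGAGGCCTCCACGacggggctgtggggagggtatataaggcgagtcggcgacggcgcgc

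The Cdk1 run holds the CHR letters 71 and 15 bases before the start, Top2a 179 and 23 bases before it, and Hspa5 its ER stress element 65 bases before it. The Cenpa run holds no CHR letters. Over the table, TTTGAA on either strand stood in 42.7% of 75 promoters of mitotic genes (70 of 89 genes matched by symbol), in 9.52% of 42 promoters of replication genes (37 of 47 matched) and in 16.0% of all 32851 promoters. CCAAT stood in 70.7%, 57.1% and 33.8% of the same sets. An E2F site (TTTGGCGC, TTTGCCGC, TTTCGCGC or TTTCCCGC on either strand) stood in 23.8% of the replication promoters, 6.67% of the mitotic promoters and 1.86% of all. The ER stress element (ERSE, which begins with a CCAAT box) stood in 29.4% of 34 promoters of ER folding genes, with 31 of 37 genes matched, and in 0.113% of all. The lists were also split by whether both day 7 libraries lay above the controls. TTTGAA stood in 38.8% of 67 mitotic promoters of genes above and 75% of 8 of genes not above. The E2F site stood in 21.6% of 37 and 40% of 5 replication promoters, and ERSE in 33.3% of 12 and 27.3% of 22 ER folding promoters. These are matches of letters and say nothing of binding in these islets.

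The ER folding genes had a small positive median at day 7, which depended on the controls used. It was 0.39 against controls 1 and 2 alone and 0.06 against controls 3 and 4 alone. The list score was 7.63, 7.75, 8.0 and 8.14 in the controls, a split along the file-name code, and 8.02 and 8.12 at day 7. Of 37 tested, 0 were called. At an unadjusted p below 0.05, 11 were higher (29.7%, all genes 4.87%) and 3 lower (8.11%, all genes 4.83%). Both day 7 libraries were above all controls for 11 (29.7%, all genes 10.7%), and the median log2 fold change was 0.16. Hspa5 was at 1639, 1745, 2125 and 1955 CPM in the controls and at 2256 and 2536 CPM at day 7 (0.36, SE 0.152, edgeR adjusted p = 0.448). Both day 7 libraries were above the controls, and replicate 1 was close to control 3. Sdf2l1 and Creld2, partners of BiP that its stress response induces, had log2 fold changes of 0.87 (SE 0.233) and 0.77 (SE 0.201), and Fkbp2, an ER prolyl isomerase, one of 0.62 (SE 0.123). Manf was at 83.0, 89.1, 145 and 150 CPM in the controls, a split along the file-name code, and at 152 and 157 CPM at day 7. Hsp90b1, for the chaperone GRP94, was at 1050 to 1338 CPM against 1335 and 1413 CPM. Ern1, for the stress sensor IRE1, lay the other way, at 59.6 to 70.6 CPM in the controls and at 45.8 and 41.4 CPM at day 7 (-0.54, SE 0.115, adjusted p = 0.0787).

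**Figure D3:**
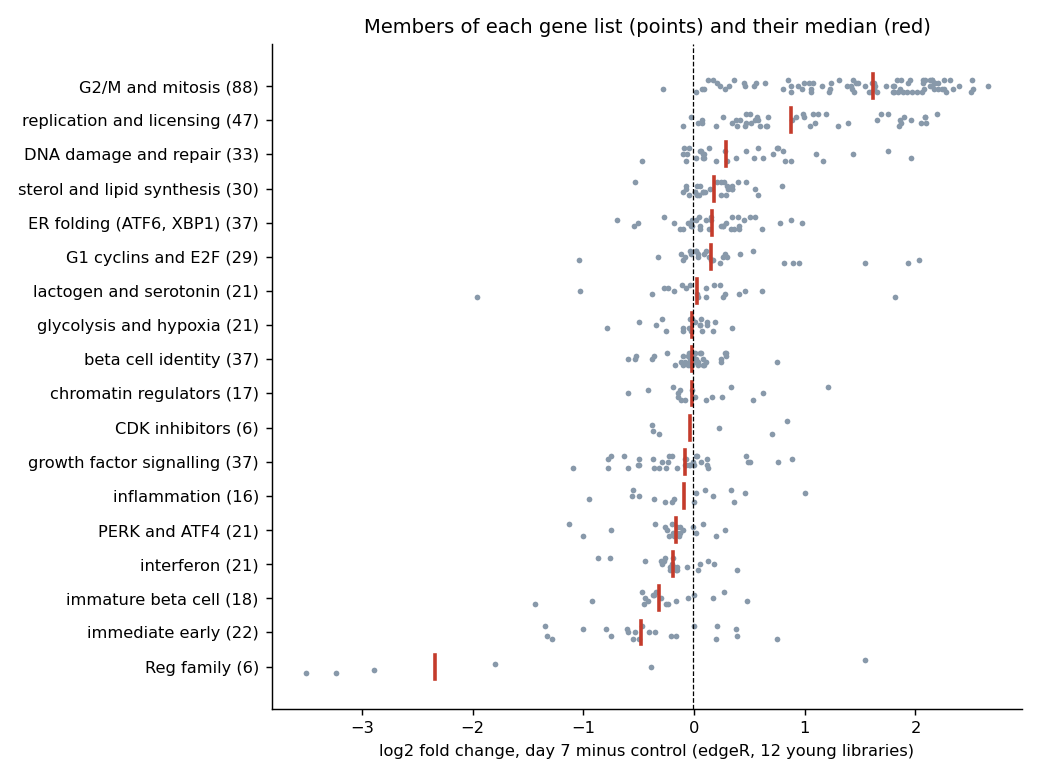
Log2 fold change at day 7 against control (horizontal axis) of each tested member (points) of the 18 pathway lists, with the list median as a red bar, the number tested in brackets and the median of all genes as a dashed line. The mitotic and replication lists lie furthest to the right, at medians of 1.62 and 0.88, and the Reg family furthest to the left, at -2.34.

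The genes that fell were of mixed function, and the spread between controls differed from gene to gene. Mdm1, which encodes a microtubule-binding protein of the centriole, was at 264, 267, 242 and 274 CPM in the controls and at 80.6 and 92.7 CPM at day 7. The fall of 1.59 on the log2 scale (SE 0.113, edgeR adjusted p = 1.68e-05) was the most certain of the comparison, and it held in all 21 alternatives, with log2 fold changes from -1.70 to -1.29. Mdm1 lies at chr10:117578843-117606053 (mm9). Fkbp5, a cochaperone of the glucocorticoid receptor and a known target of it, was at 170, 186, 128 and 128 CPM in the controls and at 53.3 and 51.3 CPM at day 7 (-1.55, SE 0.169, adjusted p = 0.00195). Its controls split along the file-name code. Usp51, a histone deubiquitinase, was at 40.1, 40.7, 43.6 and 41.1 CPM against 12.5 and 18.6 CPM (-1.40, SE 0.181, adjusted p = 0.00977).

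Gad1, the enzyme that makes GABA, was at 225, 274, 190 and 210 CPM in the controls and at 90.4 and 110 CPM at day 7 (log2 fold change -1.17, SE 0.182, edgeR adjusted p = 0.0375). Rgcc, a regulator of cell cycle progression, was at 45.9, 44.5, 41.2 and 34.0 CPM against 22.8 and 17.5 CPM (-1.04, SE 0.153). Ahcy, which hydrolyses S-adenosylhomocysteine in the methylation cycle, was at 64.3, 88.3, 61.2 and 79.5 CPM against 39.7 and 38.0 CPM (-0.92, SE 0.148). Rab31, a small GTPase of endosome traffic, was at 57.0, 58.9, 58.5 and 61.3 CPM against 29.7 and 36.2 CPM (-0.84, SE 0.116, adjusted p = 0.0165). Nudt4, an inositol phosphate phosphatase, and Tmtc3, an ER protein, fell by 0.87 and 0.70 on the log2 scale, both with an adjusted p of 0.0498, and were lost in every fit that left out 1 library.

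The same genes can be set beside the other days. The 3 comparisons share the 4 controls, so their values are only set side by side. For Mdm1 the log2 fold changes were -1.43 at day 2, -1.59 at day 7 and -1.85 at day 14. For Fkbp5 they were -1.41, -1.55 and -1.43, and for Rab31 they were -0.92, -0.84 and -0.80. Cenpa was at 0.61 at day 2, 2.26 at day 7 and 0.50 at day 14, and Fam111a at 1.82, 1.64 and 0.67.

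Hspa1a and Hspa1b, the stress-inducible HSP70 genes, were low at day 7 alone among the 4 groups, and the direct contrasts with day 2 and day 14 are given at the end. Hspa1a was at 49.6, 31.4, 43 and 38.4 CPM in the controls and at 19.5 and 19.6 CPM at day 7 (log2 fold change -1.05, SE 0.167, edgeR adjusted p = 0.0375). Its day 2 libraries were at 52.3, 48.3, 55.4 and 57.5 CPM and its day 14 libraries at 59.0 and 70.0 CPM. Hspa1b was at 22.4 and 19.6 CPM at day 7 against 35.8 to 56.5 CPM in the controls (-1.08, SE 0.177, adjusted p = 0.0375). The 2 genes lie side by side at chr17:35106144-35109069 and chr17:35093381-35096183 (mm9) and are nearly identical, so how their reads were divided is uncertain and they count as 1 observation.

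Genes of the immediate early response, which cells switch on within minutes of a stimulus, were mostly below control. Of 22 tested, 0 were called. At an unadjusted p below 0.05, 6 were lower (27.3%, all genes 4.83%) and 0 higher (all genes 4.87%). Both day 7 libraries were below all controls for 10 (45.5%, all genes 11.5%), and the median log2 fold change was -0.48. Klf2, a flow- and signal-responsive transcription factor, was at 18.2, 13.5, 16.4 and 14.2 CPM in the controls and at 6.43 and 5.78 CPM at day 7 (-1.35, SE 0.263, edgeR adjusted p = 0.0661). Egr1 was at 40.6, 32.8, 34.6 and 19.5 CPM against 10.1 and 15.2 CPM (-1.33, SE 0.303, adjusted p = 0.089). Zfp36, which destabilizes cytokine mRNAs, had -0.80 (SE 0.267). Fos, at 15.2, 4.71, 13.4 and 7.86 CPM in the controls and at 3.63 and 4.76 CPM at day 7, overlapped with control 2.

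Ligands, receptors and adaptors of growth factor signalling had a median of -0.08. Of 37 tested, 0 were called. At an unadjusted p below 0.05, 2 were higher (5.41%, all genes 4.87%) and 3 lower (8.11%, all genes 4.83%). Both day 7 libraries were below control for 11 (29.7%, all genes 11.5%) and above it for 3 (8.11%, all genes 10.7%). The joined row of Irs2, an insulin receptor substrate, with 9530052E02Rik was at 36.6, 41.4, 37.5 and 39.6 CPM in the controls and at 24.9 and 26.4 CPM at day 7 (-0.60, SE 0.127, edgeR adjusted p = 0.0787). Igf1r had a log2 fold change of -0.50 (SE 0.144). Hbegf, an EGF receptor ligand, was at 4.71 to 6.19 CPM in the controls and at 10.4 and 10.5 CPM at day 7 (0.89, SE 0.226).

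In the list of lactogen and serotonin signalling, the pathway by which prolactin expands beta cells in pregnancy, members lay in both directions around a median of 0.03, with 0 of 21 called. Cish, a feedback inhibitor that STAT5 induces, was at 13.8, 5.46, 11.2 and 11.2 CPM in the controls and at 36.0 and 37.1 CPM at day 7 (1.82, SE 0.386, edgeR adjusted p = 0.0787). Bcl6, a repressor that opposes STAT5, was at 7.77, 8.5, 8.13 and 5.74 CPM against 1.98 and 1.88 CPM (-1.96, SE 0.534). Both genes had day 7 libraries close together and clear of the controls. Socs2 had 0.41 (SE 0.223), Ghr -0.38 (SE 0.145), and Tph1, the serotonin-making enzyme of pregnancy islets, had 0 counts in both day 7 libraries and 0 to 3 in the controls.

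Sterol and fatty acid synthesis genes sat slightly above control, with 25 of 30 tested on the positive side, a median of 0.18 and 0 called. At an unadjusted p below 0.05, 6 were higher (20%, all genes 4.87%) and 1 lower (3.33%, all genes 4.83%). The joined row of Scd2, a fatty acid desaturase, and Mir5114 was at 130, 172, 134 and 182 CPM in the controls and at 262 and 273 CPM at day 7 (0.79, SE 0.167, edgeR adjusted p = 0.0787). Fdps and Idi1, of the mevalonate pathway, had 0.58 (SE 0.165) and 0.47 (SE 0.166). Elovl6, a fatty acid elongase, lay the other way at -0.53 (SE 0.194). The list of beta cell immaturity and dedifferentiation had a median of -0.32, with 15 of 18 tested on the negative side and 0 called. At an unadjusted p below 0.05, 2 were lower (11.1%, all genes 4.83%) and 0 higher (all genes 4.87%). Both day 7 libraries were below all controls for 5 (27.8%, all genes 11.5%). Of the other pathway lists, the Reg family is given below. The rest held 0 calls, with medians of -0.02 for glycolysis and hypoxia, -0.09 for inflammation, -0.16 for the PERK and ATF4 arm of the stress response and -0.19 for interferon response.

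**Figure D4:**
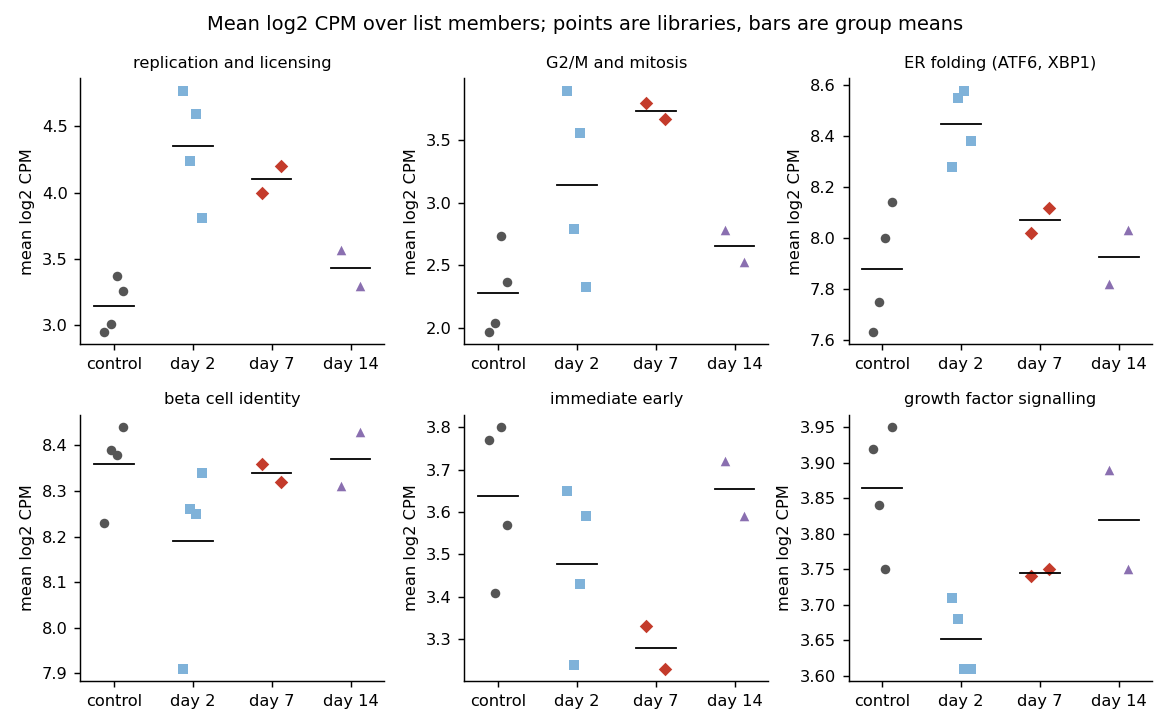
Mean log2 CPM over the members of 6 lists (vertical axis, a scale of its own in each panel) in each young library; points are libraries and bars are group means. Day 7 is at 3.79 and 3.66 for mitosis, above all controls, while the ER folding list at 8.02 and 8.12 lies within the control range of 7.63 to 8.14.

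Beta cell identity genes were centred on the control level at day 7. Of 37 tested, 0 were called, and the median log2 fold change was -0.02. At an unadjusted p below 0.05, 0 were higher (all genes 4.87%) and 2 lower (5.41%, all genes 4.83%). Ins2 was at 83970, 91960, 82850 and 104600 CPM in the controls and at 94740 and 92010 CPM at day 7 (0.04, SE 0.204), and Ins1 differed by 0.09 (SE 0.204). Mafa, a maturity factor, was at 39.2, 58.6, 39.0 and 44.0 CPM against 52.8 and 56.8 CPM (0.28, SE 0.191). Ucn3 and Slc2a2, the mature beta cell hormone and the glucose transporter, differed by -0.08 (SE 0.169) and -0.12 (SE 0.158), and Pdx1 and Pcsk1 by 0.28 (SE 0.185) and 0.29 (SE 0.146).

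Alpha cell markers lay below control. All 8 tested had a negative log2 fold change, with a median of -0.85. At an unadjusted p below 0.05, 7 were lower (87.5%, all genes 4.83%), and 0 were called. Gcg, for glucagon, was at 24890, 31330, 17490 and 20100 CPM in the controls and at 10170 and 12570 CPM at day 7 (-1.04, SE 0.36, edgeR adjusted p = 0.292). Irx2 was at 16.6, 16.1, 12.6 and 11.5 CPM against 7.58 and 6.21 CPM (-1.04, SE 0.264), and Slc7a2 had -0.78 (SE 0.158, adjusted p = 0.0703). Neurog3, of endocrine progenitors and not one of the alpha cell markers, had -1.43 (SE 0.541).

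Of 7 delta and PP cell markers tested, 3 had a positive and 4 a negative log2 fold change, from -0.36 to 1.16. Their median was -0.00, and 0 were called. Ppy and Pyy, the peptides of PP cells, lay above control. Ppy was at 4799, 1136, 4828 and 1670 CPM in the controls and at 6374 and 7516 CPM at day 7 (1.16, SE 0.463), and Pyy was at 1241, 607, 1362 and 608 CPM against 1835 and 1946 CPM (0.99, SE 0.302). Controls 1 and 3 were high and controls 2 and 4 low in both genes, and neither gene was called. Sst, of delta cells, was level at 649 to 814 CPM in the controls and 679 and 784 CPM at day 7. PP cells are concentrated in the head of the pancreas and alpha cells in the tail, the part removed. In day 7 against control, the region sampled and the operation cannot be told apart. Against the same controls, the alpha cell median was -1.01 at day 2, -0.85 at day 7 and -0.41 at day 14. The delta and PP cell median was -0.21, -0.00 and -0.16 on these days.

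Exocrine RNA moved with the groups. The summed level of 28 acinar marker genes was 45659, 54399, 40818 and 132780 CPM in the controls and 14409 and 4453 CPM at day 7. Amylase 2 rows took 13.0%, 14.4%, 9.93% and 26.8% of the counts in the controls and 4.07% and 1.24% at day 7. Of 27 tested acinar markers, 0 were called by edgeR and 8 were called lower by DESeq2, and the median was -2.58. At an unadjusted p below 0.05, 25 were lower (92.6%, all genes 4.83%). Both day 7 libraries were below all controls for 23 (85.2%, all genes 11.5%). Ptf1a, a defining acinar factor, had 0 counts in both day 7 libraries. Leaving the acinar markers out before scaling gave 16 calls, which held all 15 listed above, and a mitotic median of 1.63.

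Pnlip, pancreatic lipase, was at 903, 1237, 800 and 2821 CPM in the controls and at 286 and 83.2 CPM at day 7 (log2 fold change -2.97, SE 0.791). Clps, its cofactor, had -2.93 (SE 0.69, edgeR adjusted p = 0.0989), and Klk1, a pancreatic kallikrein, -2.82 (SE 0.698). The 10 largest falls by the same rule as the rises were exocrine or Reg genes, among them Klk1b5 at -3.37 (SE 0.678), Reg1 at -3.23 (SE 0.846), Amy2b at -3.23 (SE 1.14), Pnliprp1 at -3.01 (SE 0.807), Gp2 at -3.01 (SE 0.761) and Serpini2 at -2.95 (SE 0.655). Several amylase rows are near-identical copies, Amy2a5 among them at -3.03 (SE 0.878), and their division is uncertain. Among markers listed as ductal, Muc1 was at -2.56 (SE 0.758) and Tff2 at -2.41 (SE 0.722), while summed ductal markers overlapped, at 875 and 964 CPM at day 7 and 826 to 1007 CPM in the controls. On plain library totals without TMM the ductal sums did not overlap, at 923 and 1033 CPM at day 7 and 711 to 898 CPM in the controls.

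Reg genes encode secreted lectins of acinar cells, some of them induced by injury. Reg1 was at 342, 439, 188 and 719 CPM in the controls and at 61.0 and 29.0 CPM at day 7. Reg2 was at 4.42, 7.74, 7.69 and 58.0 CPM against 2.97 and 2.31 CPM, Reg3b at 9.71, 10, 2.96 and 9.82 CPM against 2.47 and 2.17 CPM, and Reg3d at 2.37 to 8.91 CPM against 0.495 and 0.433 CPM. Reg3a had 0, 2, 2 and 4 counts in the controls and 2 and 1 at day 7, and Reg3g 0, 0, 4 and 6 counts against 10 and 5, so neither was detectably different at this depth. None of the 6 tested Reg genes was called by edgeR, and 3 were lower at an unadjusted p below 0.05 (50%, all genes 4.83%). The median of the 6 was -2.34, in the same direction as the acinar markers.

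Summed leukocyte markers were 536 and 492 CPM at day 7 and 509 to 617 CPM in the controls, with the neutrophil genes S100a8 and S100a9 at 0 counts in both. Stellate and fibroblast markers were 409 and 517 CPM against 381 to 681 CPM, and endothelial markers 724 and 678 CPM against 706 to 753 CPM, so all 3 sums overlapped between the groups. Pecam1, the endothelial adhesion molecule, had a log2 fold change of -0.42 (SE 0.141), H2-Eb1, of antigen presentation, -0.39 (SE 0.164), Ifitm3, an interferon-induced gene, -0.87 (SE 0.225) and Il6ra, the IL-6 receptor, -0.56 (SE 0.143), none past the adjusted threshold.

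**Figure D5:**
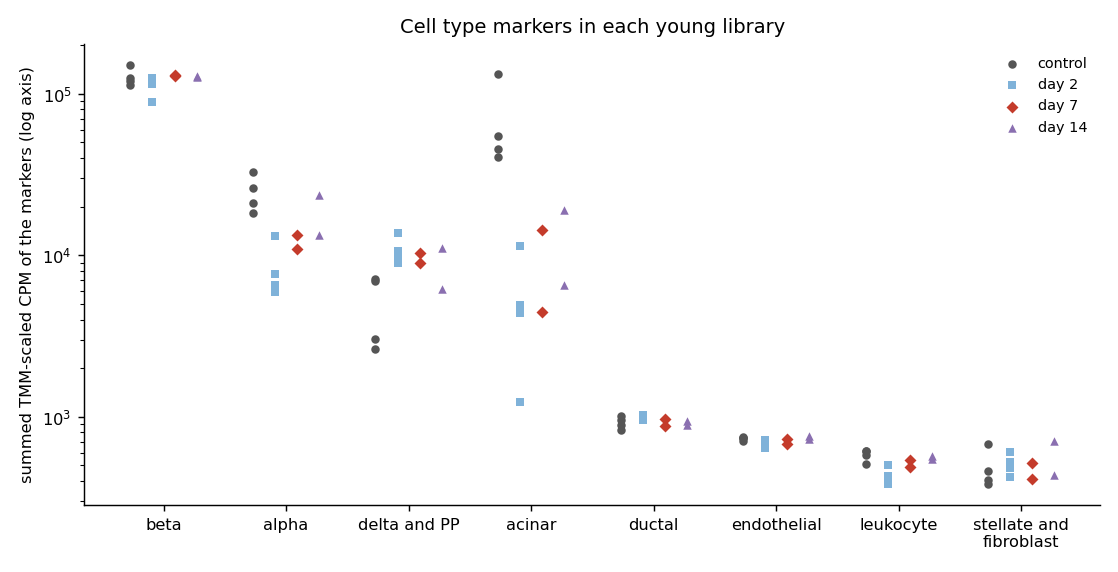
Summed TMM-scaled CPM of the marker genes of 8 cell types (horizontal axis) in each young library on a log axis; circles are controls, squares day 2, diamonds day 7 and triangles day 14. Acinar markers are at 40818 or more in the controls and at 14409 and 4453 at day 7, alpha markers are at 10857 and 13266 at day 7 against 18350 to 32624, and beta markers overlap, at 131122 and 128728 at day 7 against 113520 to 150713 in the controls. On plain library totals without TMM the beta sums do not overlap, at 138334 and 137996 at day 7 against 106419 to 114698.

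Set directly against day 2, the day 7 islets differed in 5 of 14493 genes (0.0345%, of which 0.0138% higher and 0.0207% lower), in a contrast that does not use the controls. Hspa1b and Hspa1a were lower at day 7 by edgeR, with log2 fold changes of -1.51 (SE 0.178) and -1.45 (SE 0.168) and an adjusted p of 0.00491 for each. Spata5, an AAA ATPase, was at 24.9, 28.1, 27.1 and 26.4 CPM at day 2 and at 13.5 and 14.0 CPM at day 7 (-0.95, SE 0.145, adjusted p = 0.0427). Klhl24 and Abtb1, both with protein-interaction domains of the BTB type, were higher at day 7, by 1.02 (SE 0.155) and 0.99 (SE 0.154), each with an adjusted p of 0.0427. Klhl24 was at 42.6, 28.3, 38.7 and 46.8 CPM at day 2 and at 76.7 and 81.6 CPM at day 7, and Abtb1 at 13.7 to 18.8 CPM against 35.8 and 31.3 CPM, within the control range of 32.8 to 39.3 CPM. DESeq2 gave 203 calls (1.40%), leaving out either day 7 library gave 0, and leaving out day 2 replicate 4, the least changed in the cell cycle lists, gave 26.

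The cell cycle lists leaned opposite ways in this contrast, without a call in either. Of 88 mitotic genes, 13 were higher at day 7 than at day 2 at an unadjusted p below 0.05 (all genes 3.91%) and 0 lower, with a median of 0.39. Of 47 replication genes, 0 were higher and 8 lower (all genes 5.86%), with a median of -0.28. Mcm5 was at 57.1, 34.4, 46.7 and 23.6 CPM at day 2 and at 19 and 26.9 CPM at day 7 (-0.81, SE 0.334, edgeR adjusted p = 0.44). Cenpa was at 3.46, 1.82, 2.58 and 1.16 CPM at day 2 and at 7.75 and 6.21 CPM at day 7 (1.65, SE 0.381, adjusted p = 0.147). Mki67 did not separate, at 69.0, 19.9, 55.5 and 20.4 CPM at day 2. The day 2 libraries were spread out, with mitotic scores of 3.89, 2.79, 3.55 and 2.33 in replicates 1 to 4. Both day 7 scores lay between those of day 2 replicates 1 and 3.

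ER folding genes lay lower at day 7 than at day 2. Of 37 tested, 0 were called, and the median was -0.36. At an unadjusted p below 0.05, 22 were lower at day 7 than at day 2 (all genes 5.86%) and 0 higher (all genes 3.91%). Hspa5 was at 4113, 4195, 3858 and 3499 CPM at day 2 and at 2256 and 2536 CPM at day 7 (-0.71, SE 0.159, edgeR adjusted p = 0.142). Against control, the median of this list was 0.56 at day 2, 0.16 at day 7 and 0.08 at day 14.

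Against day 14, only Hspa1a and Hspa1b differed at the adjusted threshold (2 genes, 0.0138%), at -1.72 (SE 0.185, edgeR adjusted p = 0.00324) and -1.68 (SE 0.196, adjusted p = 0.0044). DESeq2 called 3 genes (0.0207%). At an unadjusted p below 0.05, 45 of 88 mitotic and 24 of 47 replication genes were higher at day 7 than at day 14 (all genes 1.54%), 0 of either were lower (all genes 1.5%), and the medians were 1.07 and 0.59. Top2a was at 20.4 and 20.1 CPM at day 14 and at 60.5 and 61.8 CPM at day 7 (1.60, SE 0.54), Nek2 at 8.38 and 6.47 CPM against 23.2 and 19.4 CPM (1.51, SE 0.595), and neither was called with 2 libraries a group. The medians of the mitotic list against control were 1.04 at day 2, 1.62 at day 7 and 0.38 at day 14, and those of the replication list 1.16, 0.88 and 0.25.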

How the data were processed

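RNA of whole islets was made into low-input full-length cDNA libraries and sequenced. Per the file headers, the authors aligned reads to mouse mm9 with TopHat and deposited, for each of 22197 features, whole read counts and RPKM values (reads scaled by gene length and library depth) from rpkmforgenes with uniquely mapped reads and RefSeq genes. The submitters' processing notes name TopHat2 2.1.1, Trimmomatic 0.36 and CASAVA 1.8.2, while the study's methods describe other aligning and counting tools. Strand use in counting is not given in the sources used here. Of the features, 1458 join several gene names and 441 repeat a name, and these joined features were kept and named as joined.

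From the deposited counts, 12 young libraries (4 control, 4 day 2, 2 day 7 and 2 day 14) were fitted together with edgeR 4.0.16 (R 4.3.3): filterByExpr, TMM scaling, the quasi-likelihood test and Benjamini-Hochberg adjustment over 14493 genes at 0.05. The standard error is the log2 fold change divided by the root of its F. DESeq2 1.42.0 and limma 3.58.1 (on log2(RPKM + 1) of the deposited RPKM values, and voom) were alternatives, with other scalings, filters and sets of libraries. The fits were tested on simulated data. With 2 libraries against 4 an exact permutation test cannot reach 0.05, so none was used. List scores used a prior count of 2. Named genes were all calls, a fixed set, the 4 members of each list with the lowest p, and the 10 largest rises and falls with groups that did not overlap. Others, such as calls against day 2, were named after their values were seen. The members, lists and tests were chosen with earlier results of these data known. Positions are from GENCODE vM1 (mm9), and promoters from RefSeq GRCm38.p6, matched by symbol. A few results of the named-gene rule are not reported here.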

Additional observations from a re-analysis of the deposited data

Results flagged for a closer look

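In 8 of 160 quantities tested, 1 young control stood apart from the other 3 by Dixon's criterion, and chance gives about 5% of groups. Control 3 was high in Ccnb2, at 5.17 CPM with the others at 1.52 to 2.12, and low in Reg3b, at 2.96 CPM with the others at 9.71 to 10. Control 4 was high in Amy2a5 (99040 CPM, others 31190 to 37850), Muc1 (16.9 CPM, others 5.47 to 7.13), Reg2 (58.0 CPM, others 4.42 to 7.74) and the score of CDK inhibitors (3.25, others 2.91 to 2.96). Control 2 was low in Dnmt1 (31.4 CPM, others 34.6 to 34.8), and control 1 was high in summed stellate and fibroblast markers (657 CPM on plain library totals without TMM, others 327 to 370).

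The effect at day 7 differed from that at another day, by the direct contrast in edgeR, for these genes. Against day 2 the log2 differences were -1.51 for Hspa1b, -1.45 for Hspa1a, -0.95 for Spata5, 1.02 for Klhl24 and 0.99 for Abtb1. Against day 14 they were -1.68 for Hspa1b and -1.72 for Hspa1a.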

How the results depend on the processing

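The number of calls and their split by direction both depended on the setting, and the named genes whose sign turned are given below. Day 7 against control gave 15 calls, and 234 with DESeq2, 151 with no filter beyond 1 count, 440 with limma on log2(RPKM + 1), 193 with the 6 control and day 7 libraries alone, 45 with all 24 libraries, 82 with the fraction of reads counted in genes as covariate, 23 with unrepeated single names, 105 with controls 1 and 2, 3 with controls 3 and 4, 6 with the file-name code as a random block in limma-voom and 1 to 21 when 1 library was left out. The pathway lists held fewer or more called members in the same order: 78 (DESeq2), 64, 86, 76, 17, 20, 6, 26, 0 and 0, also 0 with RLE scaling, and 0 to 3 with 1 library left out. The causes were not tested. Against day 2, DESeq2 gave 203 calls and leaving out 1 library 0 to 26. Against day 14, leaving out 1 library gave 0 to 2.

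List medians with limma on log2(RPKM + 1) were 1.10 for mitosis, 0.43 for ER folding and 0.26 for beta cell identity. That scale moved the median of all genes to 0.21. With the fraction of reads counted in genes as covariate, the median was 1.29 for mitosis and 0.67 for replication, against 1.62 and 0.88 without it. It was 0.24 for ER folding and 0.10 for beta cell identity, against 0.16 and -0.02. With 1 library left out, the median of the replication list ranged from 0.67 to 0.94.

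The replicate numbers are shared by 2 pairs at most, and same-numbered deviations of day 7 and control correlated at 0.0217, so the numbers do not pair the samples. A replicate block gave 117 calls against control, 33 of them among pathway members, and 26 against day 2. It gave a beta cell identity median of 0.09 and put Reg3a at 0.38.

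Among the genes named, signs turned for 8, all without a call at day 7 against control. Limma on log2(RPKM + 1) gave 0.21 for Ucn3, 0.15 for Slc2a2, 0.27 for Sst, 0.02 for Reg3a and 0.18 for Abtb1. Controls 3 and 4 alone gave -0.06 for Ins1, -0.01 for Ins2 and 0.02 for Abtb1, and controls 1 and 2 alone gave 0.48 for Reg3a. That covariate gave 0.05 for Ucn3. Sst was 0.01 with upper quartile scaling, either other filter, all 24 libraries or unrepeated names. With 1 library left out, the ranges that crossed 0 or touched it were -0.08 to 0.79 for Ccne1, 0.00 to 0.12 for Ins2, -0.16 to 0.00 for Ucn3, -0.11 to 0.11 for Sst, -1.0 to 0.15 for Reg3a and -0.17 to 0.01 for Abtb1.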
